A study of Mus musculus with 11 samples.

Results

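Levels of 36 immediate early and stress response genes were examined in basal and luminal cells of the pubertal mouse mammary gland. The genes were taken from a list of symbols, matched by Entrez identifier to a table of 27179 genes. The rule that lists them uses no measured value, but the list was drawn up with earlier results of these data known. All 36 were counted, and all 36 were among the 17370 genes that passed the filter on low counts. The study micro-dissected terminal end buds (TEBs), the club-shaped growing tips of the pubertal ductal tree, and the ducts behind them from 5-week-old E-cadherin-GFP females on a C57BL/6 background, using the GFP to guide the dissection. Each structure was then dissociated and sorted into GFP-high luminal and GFP-low basal cells, both Lin- CD29+ CD24+. Lin- means without the erythroid, endothelial and leukocyte markers Ter119, CD31 and CD45. Bulk RNA-seq gave 3 libraries each of basal duct, basal TEB and luminal TEB cells and 2 of luminal duct cells, the third luminal duct sample having been left out by the authors because too few cells were obtained. At least 2 mice were pooled in each library, and every group carried the GFP allele and went through dissociation and sorting, for which the time per sample is not given in the sources used here.

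Immediate early genes are transcribed within minutes of a stimulus, without need of new protein, by factors such as SRF with its ELK partners, CREB and NF-kB that are already present in the cell. Many encode transcription factors themselves: FOS and JUN proteins pair through leucine zippers to form AP-1, EGR proteins bind through zinc fingers, and NR4A proteins are orphan nuclear receptors. Other members switch the response off again, as DUSP1 does by dephosphorylating MAP kinases, ZFP36 by promoting decay of AU-rich mRNAs, and IkB-alpha by holding back NF-kB. Growth factors, stretch and stress induce this set, and so does the enzymatic dissociation of tissue.

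Library totals ran from 27989137 to 49221436 counts, and mitochondrial genes took 4.34% to 37.5% of them, with the highest shares in basal TEB replicate 1 (37.5%), luminal duct replicate 3 (28.5%) and basal TEB replicate 3 (17.8%). Markers were checked against the sort labels. The summed level of 6 basal markers was 4952 to 17580 CPM (counts per 1000000 counts, after TMM scaling of library sizes) in basal libraries and 11.9 to 216.6 CPM in luminal ones. The 6 luminal markers summed to 420.8 to 654.6 CPM in basal and 9405 to 14290 CPM in luminal libraries. Basal duct replicate 2 stood apart by its endothelial markers (202.6 CPM, against 8.98 and 18.5 CPM in the other basal duct libraries) and adipocyte markers (202.4 CPM, against 5.51 and 15.6 CPM), and luminal duct replicate 3 was the higher of its pair for both. Results that rest on these libraries are given with and without them.

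Some of the 36 genes were among the most abundant transcripts of these cells and others were scarce. Their summed level was 25132, 32445 and 25616 CPM in the 3 basal duct libraries, 11668, 16428 and 13252 CPM in basal TEB, 25724 and 22154 CPM in luminal duct, and 16818, 17591 and 20183 CPM in luminal TEB. Every basal duct library lay above every basal TEB library, and both luminal duct libraries lay above the 3 luminal TEB libraries. As a share of the counts outside the mitochondrial genes, the set took 2.74% to 3.42% in basal duct, 1.16% to 2% in basal TEB, 2.55% to 2.88% in luminal duct and 2.08% to 2.55% in luminal TEB. Per kilobase of exon, Fos ranked 22nd of all genes tested in basal duct (mean level 2347 CPM per kb) and 54th in basal TEB (817 CPM per kb), and Atf3 ranked 31st in luminal duct (1814 CPM per kb) and 22nd in luminal TEB (1204 CPM per kb). At the other end were Fosl1, with 0.576 to 25.2 CPM across the libraries, and Nr4a3, with 0.37 to 64.9 CPM. Ranks were also low in some groups for Egr3 (6417th in luminal duct and 6650th in luminal TEB), Nr4a2 (5875th and 8854th) and Gadd45b (4349th in basal TEB and 4856th in luminal TEB).

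**Figure D1:**
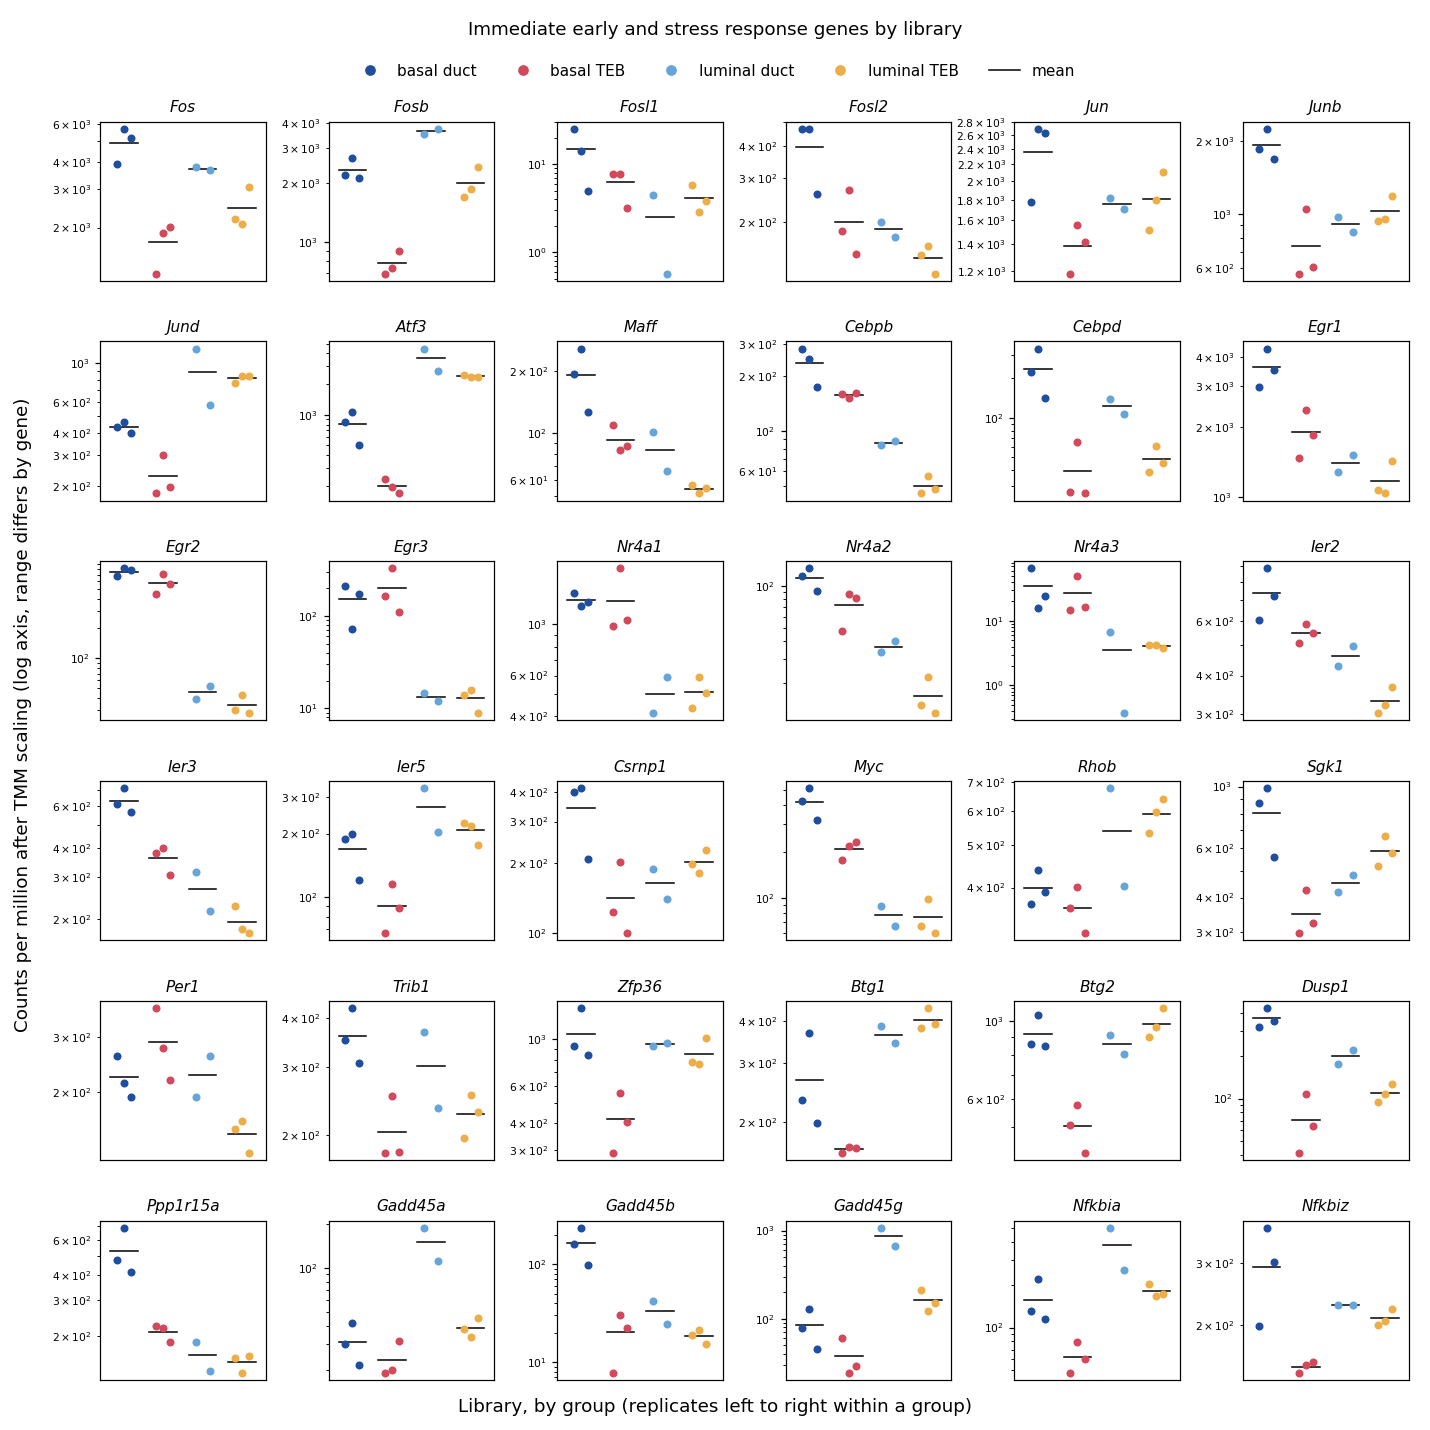
Level of each of the 36 genes in each library, in CPM after TMM scaling on a log axis whose range differs between genes, with libraries grouped by cell type and structure and the black line at the group mean. For 26 genes the 3 basal duct libraries (dark blue) all lie above the 3 basal TEB libraries (red), and for no gene does the reverse hold.

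In basal cells, 11 of the 36 genes were lower in TEBs than in ducts and none was higher, by edgeR's quasi-likelihood test at an adjusted p below 0.05. That is 30.6% of the set, where 1.16% of all 17370 genes tested were called lower, 0.167% higher and 1.32% in either direction. Log2 fold changes below are given ± SE from that fit, with p adjusted over all genes tested by the Benjamini-Hochberg method. These were Fos, Fosb and Junb of AP-1, the stress-induced factors Atf3 and Cebpd, the kinase Sgk1, the mRNA decay factor Zfp36, the antiproliferative Btg2, the phosphatase Dusp1 with the phosphatase subunit Ppp1r15a, and Gadd45b. The log2 fold change was negative for 34 of 36, with Egr3 and Per1 the exceptions, and its median over the set was -0.93, where the median over all genes tested was -0.03. Groups did not overlap for 26 genes, all lower in TEB (11.9% of all genes were without overlap and lower in TEB, and 8.88% higher). Of the 25 genes not called, 17 had an unadjusted p below 0.05, and the smallest adjusted p-values among them were 0.0508 for Nfkbiz, 0.0687 for Nfkbia and 0.0745 for Csrnp1. With the called genes included, an unadjusted p below 0.05 was found for 28 of the 36 and for 2511 of all 17370 genes tested. These are bulk samples, so fewer cells that express a gene and less RNA per cell cannot be told apart.

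The size of this set of calls rested on single libraries, while its direction did not. Without basal TEB replicate 3 only Fosb and Dusp1 were called, and without basal TEB replicate 1, basal duct replicate 2 or luminal TEB replicate 1 the count was 6. It was 7 without basal duct replicate 1, luminal TEB replicate 2 or luminal TEB replicate 3, and 13 to 15 without each of the other 4. Fosb and Dusp1 were called whichever library was left out, and no called gene changed direction. The calls of Fos, Junb, Sgk1, Zfp36 and Btg2 were the ones lost without basal duct replicate 2, and the same 6 that remained were called when luminal duct replicate 3 was left out as well. The count also depended on the method. Without composition scaling of library sizes 2 genes were called (Atf3 and Dusp1), with only the 2 basal groups in the fit 7, and with limma voom, the likelihood ratio test of edgeR and DESeq2 it was 20, 23 and 25, all lower in TEB in each case.

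**Figure D2:**
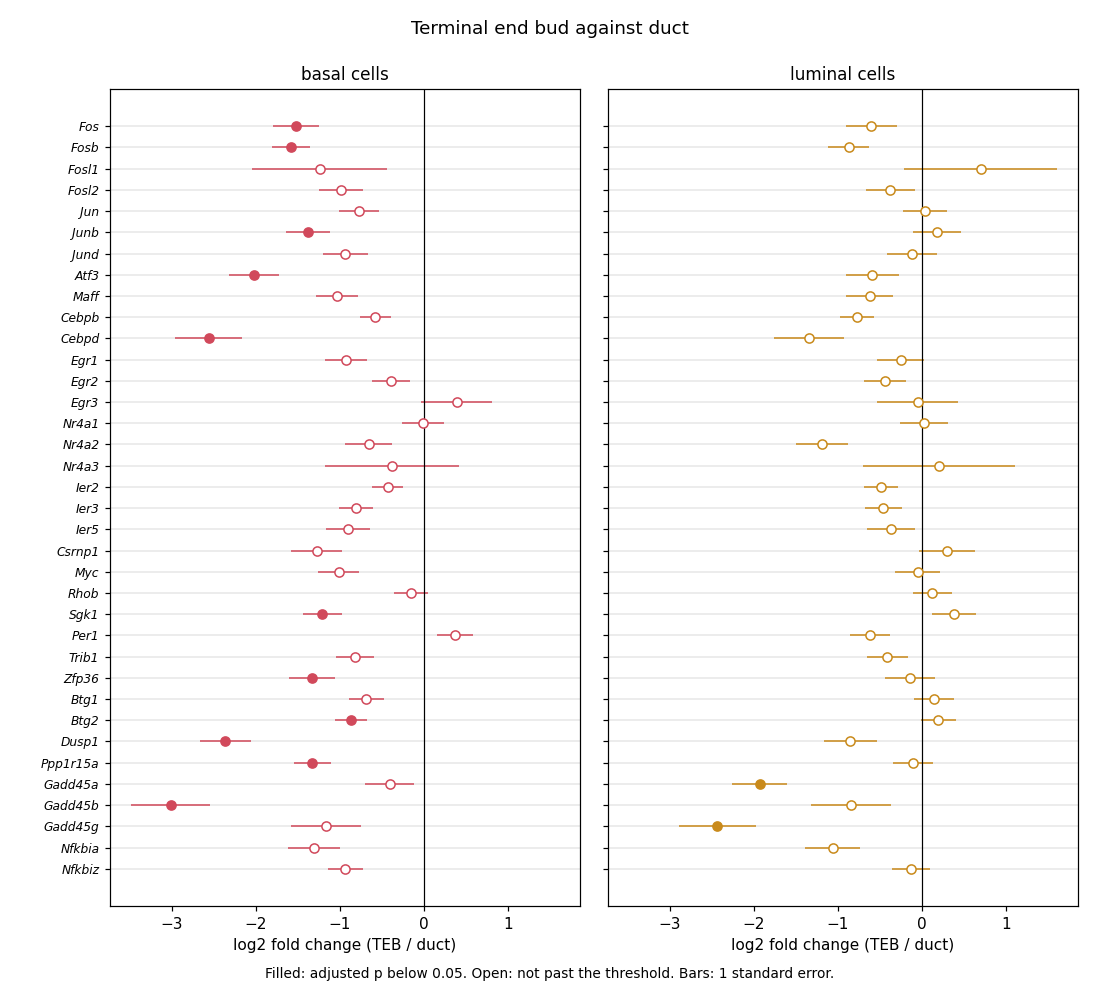
Log2 fold change of TEB against duct for each gene in basal cells (left) and luminal cells (right), with bars of 1 standard error and filled points where the adjusted p was below 0.05. In basal cells 34 of 36 points lie left of 0 and 11 are filled, and in luminal cells 26 lie left of 0 and 2 are filled, Gadd45a and Gadd45g.

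In luminal cells, 2 of the 36 genes were lower in TEBs than in ducts, Gadd45a and Gadd45g, and none was higher. That is 5.56% of the set, where 0.771% of all genes were called lower, 0.639% higher and 1.41% in either direction. The set's median log2 fold change was -0.37, beside 0.04 over all genes, and 26 of 36 values were negative. Without any composition scaling of library sizes the median over all genes moved to 0.42 and that of the set to -0.01, with no gene called. DESeq2 and the likelihood ratio test each called 7 genes and the fit with only the luminal groups 4, all lower in TEB. Groups did not overlap for 16 genes that were lower and for Sgk1, which was higher in TEB (17.4% and 26.2% of all genes, shares that are large because luminal duct has only 2 libraries). Both calls were lost without luminal TEB replicate 1, 2 or 3, and both held without any other single library. Of the 6 basal markers 5 were lower in luminal TEB as well (sums of 11.9 to 24.5 CPM, against 81.8 and 216.6 CPM in luminal duct), and their part in these calls was not tested beyond the fit without luminal duct replicate 3, the library with the higher sum.

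The FOS proteins are the inducible partners of AP-1. Fos and Fosb are shown first because both were lower in basal TEB and both carry TGACG, the core of the cyclic AMP response element (CRE) bound by CREB and ATF factors, in the 250 bases before their RefSeq start (GRCm38.p6, the patched release of mm10). Capitals mark TGACG on either strand, the full palindrome TGACGTCA and the TATA box TATAAA:

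Fos, chr12:85473640-85473889, + strand: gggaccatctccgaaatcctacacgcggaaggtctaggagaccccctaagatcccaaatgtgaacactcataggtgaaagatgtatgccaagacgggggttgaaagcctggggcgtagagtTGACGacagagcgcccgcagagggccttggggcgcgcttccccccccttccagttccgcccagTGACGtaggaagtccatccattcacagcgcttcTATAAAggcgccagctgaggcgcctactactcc

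Fosb, chr7:19310046-19310295, - strand: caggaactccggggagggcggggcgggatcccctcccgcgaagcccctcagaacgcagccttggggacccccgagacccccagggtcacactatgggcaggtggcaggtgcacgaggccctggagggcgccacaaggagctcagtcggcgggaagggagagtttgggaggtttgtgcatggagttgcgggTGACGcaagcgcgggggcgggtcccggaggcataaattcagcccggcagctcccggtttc

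Basal duct libraries held 3908, 5680.1 and 5146 CPM of Fos and basal TEB libraries 1229, 1897 and 2003. In luminal duct there were 3794 and 3657 CPM and in luminal TEB 2190.5, 2074 and 3085. Each duct library was above each TEB library of the same cell type. The log2 fold change of TEB against duct was -1.52 ± 0.28, adjusted p = 0.0239, in basal cells and -0.60 ± 0.30, adjusted p = 0.338, in luminal cells. Fosb, a FOS protein also known from neurons, was at 2199.9, 2672 and 2115 CPM in basal duct and 692, 743 and 904 in basal TEB. In luminal cells it was at 3525 and 3753 CPM in duct and 1699.5, 1866 and 2408 in TEB. Its 3 basal TEB libraries were the lowest of all 11, and its log2 fold change was -1.58 ± 0.23, adjusted p = 0.00585, in basal and -0.87 ± 0.24, adjusted p = 0.103, in luminal cells. Between cell types of the TEB, Fosb was lower in basal cells (-1.35 ± 0.22, adjusted p = 0.000789), and in ducts it was not called (-0.64 ± 0.24, adjusted p = 0.0819).

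Fosl2, which lacks the activation domain of Fos, had 469, 468 and 259 CPM in basal duct and 184, 268 and 150.3 in basal TEB, with overlapping groups. In luminal duct it was at 201 and 176 CPM and in luminal TEB at 148, 162 and 125 CPM, and it was higher in basal than luminal cells of ducts (1.08 ± 0.30, adjusted p = 0.0228), a call lost without basal duct replicate 1 or 2 or either luminal duct library. Fosl1, an AP-1 subunit of the same kind, was far less abundant, at 25.2, 14.1 and 5 CPM in basal duct and 7.79, 7.81 and 3.16 in basal TEB. The luminal libraries held 4.51 and 0.576 CPM in duct and 5.78, 2.88 and 3.79 in TEB. None of its comparisons passed the test. The annotation of Fosl1 overlaps Ccdc85b, which held 32353 counts over the libraries against 3432 for Fosl1, so reads may have been shared between them.

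JUN proteins can pair with each other or with FOS. Junb was at 1854, 2245 and 1682 CPM in basal duct and 569.9, 1047 and 607 in basal TEB, without overlap, a log2 fold change of -1.38 ± 0.26, adjusted p = 0.0265. Its luminal levels were 978 and 843 CPM in duct and 935, 958 and 1190.4 CPM in TEB, where the groups overlapped (0.17 ± 0.29, adjusted p = 0.805). Junb was at its highest in basal duct, above luminal duct by a log2 fold change of 1.08 ± 0.29, adjusted p = 0.02, which was not called without basal duct replicate 2 or luminal duct replicate 3. Jun itself had 1775, 2694 and 2625 CPM in basal duct and 1182, 1560.5 and 1418 in basal TEB, also without overlap, but the change of -0.77 ± 0.23, adjusted p = 0.161, did not pass. In luminal cells Jun was at 1812 and 1708 CPM in duct and 1518, 1800.3 and 2104 CPM in TEB, with overlapping values (0.04 ± 0.26, adjusted p = 0.975).

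Jund, the JUN member usually present without stimulation, went the other way between cell types, being lower in basal than in luminal cells of both structures. Basal duct held 432, 459.9 and 401 CPM and basal TEB 181, 299.7 and 197, against 1215 and 576 CPM in luminal duct and 776, 847 and 851 in luminal TEB. The log2 fold change of basal against luminal was -1.05 ± 0.30, adjusted p = 0.0235, in ducts and -1.87 ± 0.28, adjusted p = 0.000348, in TEBs. In ducts the call was lost without basal duct replicate 1 or 3 or without luminal duct replicate 1, the library at the higher of the 2 luminal duct values.

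Of the other bZIP factors, Atf3, a repressor induced by many stresses, was higher in luminal than in basal cells. Its levels were 855, 1063 and 506 CPM in basal duct and 233, 194 and 168 in basal TEB. Luminal levels were 4463 and 2711 CPM in duct and 2436, 2373 and 2332 CPM in TEB. All 5 luminal libraries were above all 6 basal ones, with log2 fold changes of basal against luminal of -2.15 ± 0.32, adjusted p = 0.000437, in ducts and -3.58 ± 0.32, adjusted p = 6.5e-06, in TEBs. Atf3 was also lower in basal TEB than in basal duct (-2.03 ± 0.30, adjusted p = 0.00664), whereas in luminal cells the change was -0.59 ± 0.32, adjusted p = 0.369. The difference between these 2 effects was -1.43 ± 0.44, adjusted p = 0.18.

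Cebpd, a C/EBP factor of acute phase and hypoxic responses, had 224, 337 and 142 CPM in basal duct and 27.4, 64.9 and 26.5 in basal TEB, a log2 fold change of -2.56 ± 0.40, adjusted p = 0.00891. In luminal cells it was at 139 and 106 CPM in duct and 38.9, 61.2 and 45 in TEB, without overlap but not past the threshold (-1.34 ± 0.41, adjusted p = 0.134). The annotation of Cebpd overlaps that of Spidr (8994 counts against 50060), so part of its reads may be uncertain. Cebpb, a C/EBP factor required for alveolar development of the gland, was higher in basal than luminal cells in ducts (1.46 ± 0.22, adjusted p = 0.000432) and TEBs (1.65 ± 0.19, adjusted p = 4.59e-05). It was at 282, 248 and 174 CPM in basal duct and 159.7, 151 and 161 in basal TEB. Luminal duct had 83.4 and 87.7 CPM and luminal TEB 45.5, 56.4 and 48.2. Maff, a small MAF protein, followed the same order between cell types, with log2 fold changes of 1.19 ± 0.29, adjusted p = 0.0106, in ducts and 0.78 ± 0.25, adjusted p = 0.0389, in TEBs. It had 192, 255 and 126 CPM in basal duct, 109, 83.4 and 87.3 in basal TEB, 101 and 65.8 in luminal duct and 56.8, 51.5 and 54.5 in luminal TEB. The duct call of Maff was lost without luminal duct replicate 3, and the TEB call without any 1 of the 6 TEB libraries or without basal duct replicate 1.

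Egr2 and Egr3 were higher in basal cells of both structures, and Egr1 in those of ducts. Egr2, known from Schwann cell myelination, was at 672, 810.0 and 773 CPM in basal duct and 443, 716 and 561 in basal TEB. Luminal levels were 39.1 and 52 CPM in duct and 30.2, 42.6 and 27.8 CPM in TEB. The lowest basal library was above the highest luminal library, and the log2 fold change of basal against luminal was 4.05 ± 0.30, adjusted p = 4.33e-06, in ducts and 4.10 ± 0.26, adjusted p = 5.55e-07, in TEBs. Egr3 had 213, 72.3 and 172 CPM in basal duct and 162, 326 and 111 in basal TEB. In luminal cells it was at 14.6 and 12.2 CPM in duct and 14.1, 15.8 and 8.88 in TEB. Its differences between cell types were 3.51 ± 0.56, adjusted p = 0.000685, in ducts and 3.95 ± 0.48, adjusted p = 7.07e-05, in TEBs. Neither Egr2 nor Egr3 was called between TEB and duct, in basal cells (-0.39 ± 0.23, adjusted p = 0.456, and 0.39 ± 0.42, adjusted p = 0.724) or in luminal cells (-0.44 ± 0.25, adjusted p = 0.396, and -0.05 ± 0.48, adjusted p = 0.988).

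Egr1, the most abundant member of the family, had a smaller contrast between cell types. It was at 2992, 4361 and 3513 CPM in basal duct and 1478, 2376 and 1856 in basal TEB. The luminal libraries held 1277 and 1521 CPM in duct and 1068, 1035 and 1422 in TEB. Basal duct was above luminal duct (1.37 ± 0.30, adjusted p = 0.00536), while in TEBs the difference of 0.70 ± 0.25, adjusted p = 0.0657, missed the threshold. Basal TEB did not overlap basal duct, at a log2 fold change of -0.93 ± 0.25, adjusted p = 0.118, that was not called. Luminal TEB overlapped luminal duct (-0.25 ± 0.28, adjusted p = 0.688).

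The NR4A receptors were called between cell types in both structures and between structures in neither cell type. Nr4a1 was at 1362, 1195 and 1245 CPM in basal duct and 979, 1744 and 1043 in basal TEB. Luminal levels were 412 and 590.2 CPM in duct and 435, 592 and 503 CPM in TEB. Between basal and luminal cells it differed by 1.34 ± 0.29, adjusted p = 0.00604, in ducts and 1.30 ± 0.26, adjusted p = 0.00253, in TEBs, and between TEB and duct by -0.01 ± 0.25 in basal and 0.03 ± 0.28 in luminal cells. Nr4a2, which specifies dopamine neurons in the brain, had 118, 133 and 91.6 CPM in basal duct and 47.4, 87.9 and 82 in basal TEB. Luminal duct had 33.3 and 40 CPM and luminal TEB 13.9, 22.2 and 12.2. It was higher in basal cells in ducts (1.64 ± 0.33, adjusted p = 0.00373) and in TEBs (2.17 ± 0.29, adjusted p = 0.00017). In luminal cells its TEB libraries lay below both duct libraries, at -1.19 ± 0.31, adjusted p = 0.085.

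Nr4a3 was the least abundant receptor, with 64.9, 15.8 and 24 CPM in basal duct and 14.5, 49.5 and 16.3 in basal TEB. In luminal cells it was at 6.69 and 0.37 CPM in duct and 4.28, 4.25 and 3.81 in TEB. Its lowest basal library was above its highest luminal one, although the basal replicates spread widely. The basal to luminal difference was called in ducts (3.29 ± 1.03, adjusted p = 0.0398) and TEBs (2.70 ± 0.85, adjusted p = 0.0361). Each of these calls was lost on leaving out single libraries, in ducts basal duct replicate 1 or 3, basal TEB replicate 3, luminal duct replicate 3 or any luminal TEB library, and in TEBs basal TEB replicate 2, basal duct replicate 3 or any luminal TEB library.

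Among the IER and other early response genes, Sgk1, a kinase of ion transport and survival under glucocorticoid control, changed order between structures. It was at 876, 986 and 558 CPM in basal duct and 298, 425 and 323 in basal TEB. The luminal libraries held 419.9 and 482 CPM in duct and 518, 665 and 579 in TEB. Basal TEB was below basal duct (-1.21 ± 0.24, adjusted p = 0.0303), and luminal TEB did not overlap luminal duct but was above it (0.38 ± 0.26, adjusted p = 0.481). Basal cells were above luminal cells in ducts (0.84 ± 0.27, adjusted p = 0.0411) and below them in TEBs (-0.75 ± 0.23, adjusted p = 0.0339). The difference of the TEB effects, -1.59 ± 0.35, had the smallest adjusted p of the 36 genes (0.0826) and missed the threshold. The duct call between cell types was lost without basal duct replicate 1 or 2, basal TEB replicate 3, either luminal duct library or any luminal TEB library, and the TEB call without basal TEB replicate 1 or 3 or any luminal TEB library.

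Myc, a factor of growth and proliferation, was a basal gene in these cells, at 427, 514 and 319 CPM in basal duct and 176, 218 and 230.3 in basal TEB. Luminal duct had 89.1 and 66.3 CPM and luminal TEB 66.1, 99.6 and 59.5. Its basal to luminal difference was 2.43 ± 0.30, adjusted p = 0.000104, in ducts and 1.47 ± 0.25, adjusted p = 0.000803, in TEBs. In basal cells TEB and duct did not overlap for Myc, although the change of -1.01 ± 0.24, adjusted p = 0.0758, was not called. Ier3, a modulator of apoptosis, had 611, 715 and 567 CPM in basal duct, 379, 397 and 307 in basal TEB, 317 and 216 in luminal duct and 227, 180.4 and 174 in luminal TEB, and was higher in basal cells in ducts (1.24 ± 0.23, adjusted p = 0.0021) and TEBs (0.90 ± 0.20, adjusted p = 0.00571). Ier2 was likewise higher in basal cells, by 0.67 ± 0.21, adjusted p = 0.038, in ducts and 0.73 ± 0.18, adjusted p = 0.0119, in TEBs. Its levels were 603, 885 and 723 CPM in basal duct, 507, 587 and 548 in basal TEB, 429.8 and 496 in luminal duct and 303, 322 and 367 in luminal TEB. The duct call of Ier2 was lost without 8 of the 11 libraries, and its TEB call without luminal TEB replicate 1 or 2.

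Ier5, with 189, 198 and 121 CPM in basal duct, 67.1, 115 and 88.7 in basal TEB, 329 and 205 in luminal duct and 226, 218 and 177 in luminal TEB, was lower in basal than luminal cells of TEBs (-1.19 ± 0.26, adjusted p = 0.00529). Rhob, an endosomal GTPase, was lower there as well (-0.72 ± 0.21, adjusted p = 0.0232), with 359, 401 and 314 CPM in basal TEB and 534, 596 and 639.7 in luminal TEB, a call lost without basal TEB replicate 1 or 3 or luminal TEB replicate 2 or 3. The duct libraries of Rhob held 366, 438 and 391 CPM in basal and 677 and 404 in luminal cells, which overlapped. Per1, a circadian repressor that is also induced acutely, was the reverse. It had 371, 276 and 219 CPM in basal TEB and 152, 162 and 128 in luminal TEB (0.97 ± 0.22, adjusted p = 0.0062), and in ducts, with 261, 215 and 194 CPM in basal and 194 and 260.1 in luminal cells, it did not differ detectably (-0.02 ± 0.24, adjusted p = 0.963). Csrnp1 was at 401, 417 and 208 CPM in basal duct, 123, 201 and 100.1 in basal TEB, 189 and 139 in luminal duct and 198, 181 and 227 in luminal TEB. It was called between cell types in ducts (1.06 ± 0.35, adjusted p = 0.0461) and in no other comparison, and the call was lost without basal duct replicate 1 or 2, either luminal duct library or any luminal TEB library. Trib1, a pseudokinase that directs C/EBP proteins to degradation, was not called in any comparison, with 180 to 424 CPM over the 11 libraries.

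Zfp36 binds AU-rich elements in mRNAs of this class, its own included. It was at 928, 1399.7 and 839 CPM in basal duct and 290.5, 558 and 408 in basal TEB, a log2 fold change of -1.33 ± 0.27, adjusted p = 0.0384. Luminal cells held 925 and 960.5 CPM in duct and 780.2, 765 and 1011 in TEB, which overlapped (-0.15 ± 0.30, adjusted p = 0.851), and in TEBs basal cells were below luminal cells (-1.02 ± 0.27, adjusted p = 0.0152), a call lost without basal TEB replicate 3 or luminal TEB replicate 3. Btg2, an antiproliferative p53 target, was at 856, 1042 and 850.0 CPM in basal duct and 506, 577 and 421 in basal TEB. Luminal levels were 911 and 803 CPM in duct and 901, 959 and 1088 CPM in TEB. The 3 basal TEB libraries were lower than the other 8, with -0.87 ± 0.19, adjusted p = 0.0496, against basal duct and -0.97 ± 0.19, adjusted p = 0.00242, against luminal TEB. Btg1 showed the second of these differences (-1.28 ± 0.21, adjusted p = 0.00084), with 162, 168 and 168 CPM in basal TEB and 380.4, 436 and 390.1 in luminal TEB, and not the first (-0.68 ± 0.21, adjusted p = 0.17), with 232, 368 and 199 CPM in basal duct. Luminal duct held 385 and 343 CPM.

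DUSP1 ends MAP kinase signalling in the nucleus, and PPP1R15A, also called GADD34, directs protein phosphatase 1 to eIF2-alpha and so ends the integrated stress response. Both genes were lower in basal TEB, and both hold the full CRE palindrome, so their windows before the start (GRCm38.p6, capitals as above) are shown next:

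Dusp1, chr17:26508473-26508722, - strand: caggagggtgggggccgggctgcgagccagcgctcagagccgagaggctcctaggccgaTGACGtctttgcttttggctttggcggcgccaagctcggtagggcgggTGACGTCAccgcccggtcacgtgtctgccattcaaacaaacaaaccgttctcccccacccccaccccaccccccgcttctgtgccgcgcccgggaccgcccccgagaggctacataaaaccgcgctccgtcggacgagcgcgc

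Ppp1r15a, chr7:45526269-45526518, - strand: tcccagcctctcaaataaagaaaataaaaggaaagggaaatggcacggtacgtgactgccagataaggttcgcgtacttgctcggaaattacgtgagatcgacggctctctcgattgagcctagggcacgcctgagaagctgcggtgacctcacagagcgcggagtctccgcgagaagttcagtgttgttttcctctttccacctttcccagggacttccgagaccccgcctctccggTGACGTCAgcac

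Dusp1 was at 316, 432 and 349 CPM in basal duct and 41.5, 107 and 63.9 in basal TEB. Luminal duct had 175 and 221 CPM and luminal TEB 94, 108 and 127. The highest basal TEB library was below the lowest basal duct library, and the log2 fold change of -2.37 ± 0.30, adjusted p = 0.0033, was past the threshold under all 24 alternatives tried, from -2.84 to -2.09. In luminal cells the groups did not overlap either, at -0.85 ± 0.32, adjusted p = 0.209, without passing. Ppp1r15a had 478, 686 and 415 CPM in basal duct and 224, 219 and 186 in basal TEB. In luminal cells it was at 186 and 133 CPM in duct and 155, 131 and 159 in TEB. It was lower in basal TEB than basal duct (-1.33 ± 0.22, adjusted p = 0.0116), close to equal in the luminal groups (-0.11 ± 0.24, adjusted p = 0.865), and higher in basal than luminal cells of ducts (1.72 ± 0.25, adjusted p = 0.000405). Ppp1r15a overlaps Tulp2, which held 122 counts in all.

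GADD45 proteins are small acidic proteins that act in growth arrest, MAP kinase activation and DNA demethylation. Their windows are shown because Gadd45b had the largest change in basal cells, while Gadd45a and Gadd45g were the genes called in luminal cells. No TGACG was found in any of the 3 windows (GRCm38.p6), and TATAAA in capitals was found in 2:

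Gadd45a, chr6:67037408-67037657, - strand: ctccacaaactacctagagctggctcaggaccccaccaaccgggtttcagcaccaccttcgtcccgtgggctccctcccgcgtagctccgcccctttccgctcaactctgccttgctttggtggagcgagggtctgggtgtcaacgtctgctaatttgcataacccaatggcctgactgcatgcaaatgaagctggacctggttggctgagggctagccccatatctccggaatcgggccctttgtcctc

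Gadd45b, chr10:80929841-80930090, + strand: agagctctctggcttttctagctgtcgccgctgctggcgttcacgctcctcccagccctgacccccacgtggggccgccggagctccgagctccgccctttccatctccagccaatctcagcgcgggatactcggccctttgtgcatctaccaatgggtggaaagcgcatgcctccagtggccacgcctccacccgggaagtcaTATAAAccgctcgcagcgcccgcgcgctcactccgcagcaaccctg

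Gadd45g, chr13:51846425-51846674, + strand: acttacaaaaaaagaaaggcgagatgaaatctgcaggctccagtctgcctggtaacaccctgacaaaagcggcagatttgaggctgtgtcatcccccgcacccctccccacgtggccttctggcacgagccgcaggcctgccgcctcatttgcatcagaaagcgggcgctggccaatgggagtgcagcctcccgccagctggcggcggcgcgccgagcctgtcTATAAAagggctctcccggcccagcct

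Gadd45b was at 161, 235 and 97 CPM in basal duct and 7.79, 30.5 and 22.3 in basal TEB, and its log2 fold change of -3.02 ± 0.47, adjusted p = 0.00872, was the largest of the 36 genes. Luminal cells held 41.8 and 24.8 CPM in duct and 19.1, 21.4 and 15.2 in TEB (-0.84 ± 0.48, adjusted p = 0.396), so that basal duct stood above the other 3 groups. Between cell types it was called in ducts (2.30 ± 0.53, adjusted p = 0.008), though not without luminal duct replicate 3.

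Gadd45g was at 1073 and 675 CPM in luminal duct and 211, 122 and 150.1 in luminal TEB (-2.44 ± 0.46, adjusted p = 0.0282). Its basal levels were 77.9, 129.6 and 44.8 CPM in duct and 59.5, 24.3 and 28.7 in TEB, which overlapped (-1.17 ± 0.42, adjusted p = 0.231). Basal cells were below luminal cells in ducts (-3.38 ± 0.47, adjusted p = 0.000277) and in TEBs (-2.11 ± 0.43, adjusted p = 0.00318). Gadd45a had the same order of group means, with 187 and 111 CPM in luminal duct, 37.8, 33.6 and 45.6 in luminal TEB, 29.9, 42.1 and 21.7 in basal duct and 19.2, 20.1 and 31.3 in basal TEB. It was lower in luminal TEB than luminal duct (-1.93 ± 0.33, adjusted p = 0.0191) and lower in basal than luminal duct (-2.25 ± 0.33, adjusted p = 0.000374). Its span holds the lncRNA E230016M11Rik (1751 counts), and without strand information their reads cannot be told apart where they overlap. The difference of the TEB effects between cell types was 1.53 ± 0.44, adjusted p = 0.163, for Gadd45a, -2.18 ± 0.67, adjusted p = 0.18, for Gadd45b and 1.27 ± 0.61, adjusted p = 0.361, for Gadd45g.

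Of the genes grouped by name as NF-kB inhibitors, Nfkbia, which encodes IkB-alpha, was lower in basal than luminal cells in ducts (-1.28 ± 0.33, adjusted p = 0.0151) and TEBs (-1.53 ± 0.31, adjusted p = 0.00293). Its levels were 131, 219 and 115 CPM in basal duct and 48.2, 79.5 and 60 in basal TEB. The luminal libraries held 500.2 and 253 CPM in duct and 203, 167 and 172 in TEB. TEB libraries lay below duct libraries in both cell types without a call (-1.31 ± 0.30, adjusted p = 0.0687, in basal and -1.06 ± 0.33, adjusted p = 0.136, in luminal cells). The duct call between cell types was lost without basal duct replicate 1 or 3 or luminal duct replicate 1. Nfkbiz, an atypical nuclear IkB, had 147 to 158 CPM in basal TEB and 199 to 376 CPM in basal duct, and missed the threshold narrowly (-0.93 ± 0.20, adjusted p = 0.0508).

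**Figure D3:**
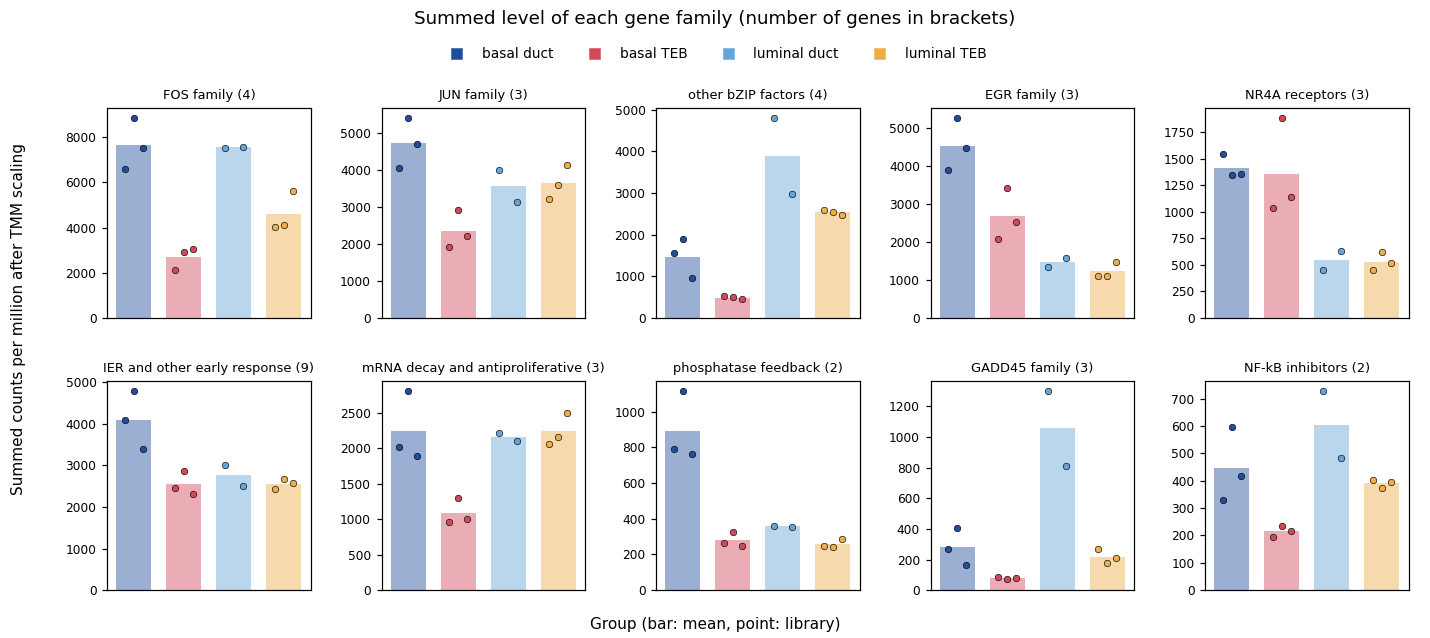
Summed CPM of the genes of each family, with bars for group means and points for libraries. The FOS sum of the 3 basal TEB libraries is 2114 to 3060 CPM against 6603 to 8834 CPM in basal duct, the EGR and NR4A sums are higher in both basal groups than in both luminal groups, and the GADD45 sum is highest in the 2 luminal duct libraries (810.8 and 1302 CPM).

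Whether the TEB effect differed between basal and luminal cells was tested by the interaction. None of the 36 genes passed (0.443% of all genes did), and 16 had an unadjusted p below 0.05, as did 2559 of all 17370 genes tested. The median over the set was -0.69, with the TEB effect lower in basal cells for 28 of 36 genes, beside a median of -0.13 over all genes. The likelihood ratio test of edgeR and DESeq2 each called 9 genes, 8 of them with the lower effect in basal cells, and limma voom called 3. Leaving out basal TEB replicate 2 gave 4 calls (Junb, Csrnp1, Sgk1 and Dusp1), luminal duct replicate 1 gave 2 (Jund and Ppp1r15a) and basal duct replicate 3 gave 1 (Sgk1). The counts of 11 genes in basal and 2 in luminal cells therefore do not show that the effects differ.

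Between cell types, 22 of 36 genes differed in ducts and 22 in TEBs, where 22.3% and 25.1% of all genes did. In ducts 17 were higher and 5 lower in basal cells, that is 47.2% and 13.9% of the set, where 12.6% and 9.71% of all genes were called higher and lower. In TEBs 11 were higher and 11 lower, 30.6% each, where 13.2% and 11.8% of all genes were. The set's median log2 fold change of basal against luminal was 0.86 in ducts and -0.33 in TEBs, beside 0.08 and 0.04 over all genes. The 2 comparisons use different libraries, but each shares a group with the TEB to duct comparisons above. Ranges did not overlap for 21 genes higher and 7 lower in basal cells in ducts (24.8% and 21.2% of all genes) and for 13 higher and 14 lower in TEBs (22.6% and 27.2%). In TEBs the split without composition scaling was 5 higher and 11 lower. In ducts the count was 15 without luminal duct replicate 3, with 9 higher and 6 lower, a fit in which the single luminal duct library left was assumed to vary like the other groups. Of the duct calls, Ppp1r15a, Egr1, Egr2, Egr3, Nr4a1, Nr4a2, Myc, Cebpb and Ier3 (higher) and Atf3, Gadd45a and Gadd45g (lower) held without any single library.

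**Figure D4:**
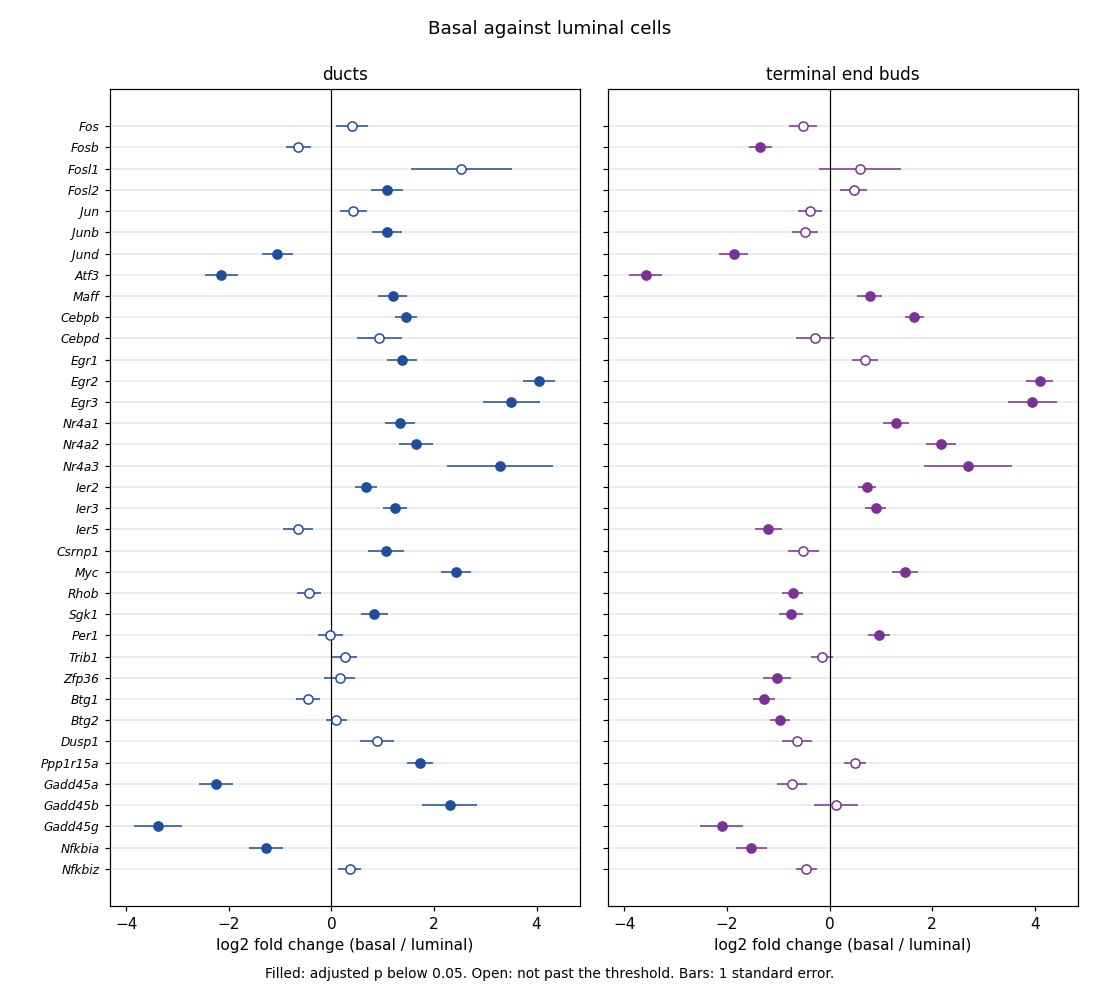
Log2 fold change of basal against luminal cells for each gene in ducts (left) and TEBs (right), with bars of 1 standard error and filled points where the adjusted p was below 0.05. Egr2 and Egr3 lie near 4 in both panels and Atf3 and Gadd45g below -2 in both, while Junb, Sgk1 and Csrnp1 are right of 0 in ducts and left of 0 in TEBs.

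The order of replicates within a group was shared by many of these genes. In basal duct, replicate 2 was the highest library for 29 of the 36 genes (37.4% of all genes tested) and replicate 3 the highest for none (31.8% of all). In basal TEB, replicate 2 was the highest for 25 (40.5% of all). These libraries were also the highest of their groups in fibroblast markers (855.7 CPM in basal duct replicate 2 against 431.7 and 498.1; 413.3 CPM in basal TEB replicate 2 against 226.9 and 229.9) and in endothelial markers (202.6 CPM, and 41.3 CPM against 9.93 and 3.53). In luminal duct, by contrast, replicate 1 was the higher for 24 of the 36 genes (53% of all), with 6.03 CPM of fibroblast markers against 258.6 CPM in replicate 3. The mitochondrial share was lowest in basal TEB replicate 2 (4.74%, against 37.5% and 17.8%) and lower in luminal duct replicate 1 (8.51%, against 28.5%). It was highest, however, in basal duct replicate 2 (10.9%, against 6.66% and 7.54%). The part of markers or mitochondrial share in this order was not tested. The median coefficient of variation over the 36 genes was 24.3% in basal duct, 24.9% in basal TEB, 20.4% in luminal duct and 13.2% in luminal TEB, beside 17%, 20.5%, 21.8% and 7.07% over the 7963 genes with a mean of at least 20 CPM.

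Summed fibroblast markers did not overlap between basal duct and basal TEB, while those of the other cells overlapped, and none of these markers was called. Of the fibroblast markers, Dcn alone was without overlap by itself, at 318, 399 and 205 CPM in basal duct and 157, 160 and 113 CPM in basal TEB. It made up most of the sum in basal duct replicate 1, and the collagen genes Col1a1, Col1a2 and Col3a1 overlapped. Fibroblast markers (0 of 7 called) summed to 431.7 to 855.7 CPM in basal duct and 226.9 to 413.3 CPM in basal TEB, endothelial markers (0 of 6) to 8.98 to 202.6 and 3.53 to 41.3 CPM, and immune markers (0 of 7 tested, of 8) to 23 to 77.4 and 26.4 to 29.5 CPM. Adipocyte markers ranged from 5.51 to 202.4 CPM in duct and 8.14 to 28.6 CPM in TEB, with Adipoq at 0 in all 3 duct libraries and Fabp4, which endothelial cells express as well, carrying most of the highest sum. Erythroid markers (0 of 4 tested) summed to at most 7 CPM in these libraries and pericyte markers (0 of 5) to at most 55 CPM. Of the 6 basal markers 3 were lower in basal TEB, where they summed to 4952 to 7832 CPM against 14390 to 17580 CPM in duct, and of the 6 proliferation markers 1 was higher, with sums of 842.3 to 1291 CPM in TEB and 231.3 to 680.2 CPM in duct. In luminal cells 0 of 6 proliferation markers were called, with sums of 333.7 and 383.8 CPM in duct and 866.8 to 985.7 CPM in TEB. The luminal sums of fibroblast, endothelial, immune and adipocyte markers overlapped between structures. Erythroid markers (0 of 4 called) summed to 6.6 and 31.3 CPM in luminal duct and 2.04 to 5.01 CPM in luminal TEB. Pericyte markers (0 of 5) summed to 179.9 and 180.8 CPM in luminal duct and 255.3 to 274.1 CPM in luminal TEB. Notch3 carried most of each of these pericyte sums, at 166 to 181 CPM in duct and 255 to 271 CPM in TEB. The part of the marked cells in the changes of the 36 genes was not tested beyond the fit without basal duct replicate 2 and luminal duct replicate 3, in which 6 genes were called, all lower, with a median of -0.77.

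For 28 of the 36 genes RefSeq gave a window of 250 bases before the start; Fosl1, Egr1, Egr3, Ier2, Myc, Trib1, Cebpd and Nfkbiz were without one. TGACG, searched on both strands, was found for 17 of the 28 (60.7%), against 19.8% of the 27025 genes with a window and 28.1% of the 12759 of them that were tested. It was found for 8 of the 10 genes called lower in basal TEB and for 9 of the 18 others. A gene with several starts has more windows. Among the genes with 1 window TGACG was found for 12 of 23, against 25.4% of tested genes with 1 window. The palindrome TGACGTCA, in which TGACG is contained, was found for Dusp1, Ppp1r15a, Btg2 and Maff (14.3%, against 1.77% of all genes with a window and 2.85% of those tested), and at the start of Ppp1r15a it lies within the 12 bases before it. TATAAA was found for 6 genes (21.4%, against 14.3% of all and 8.75% of tested genes), an NF-kB motif for 7 (25%, against 8.23% and 10.7%) and the CArG box of SRF for Egr2 and Zfp36 (7.14%, against 1.62% and 1.48%). The AP-1 site TGANTCA was found for Csrnp1 alone (3.57%, below the 7.82% of all and 6.03% of tested genes), and the EGR site GCGTGGGCG for Maff (3.57%, against 0.622% and 1.14%). For Junb, Jund and Btg2 the bases that follow the window were not found in a transcript of the reference, so the place of the start is less sure. A match is a description of letters in a window and was not set against binding data here.

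**Figure D5:**
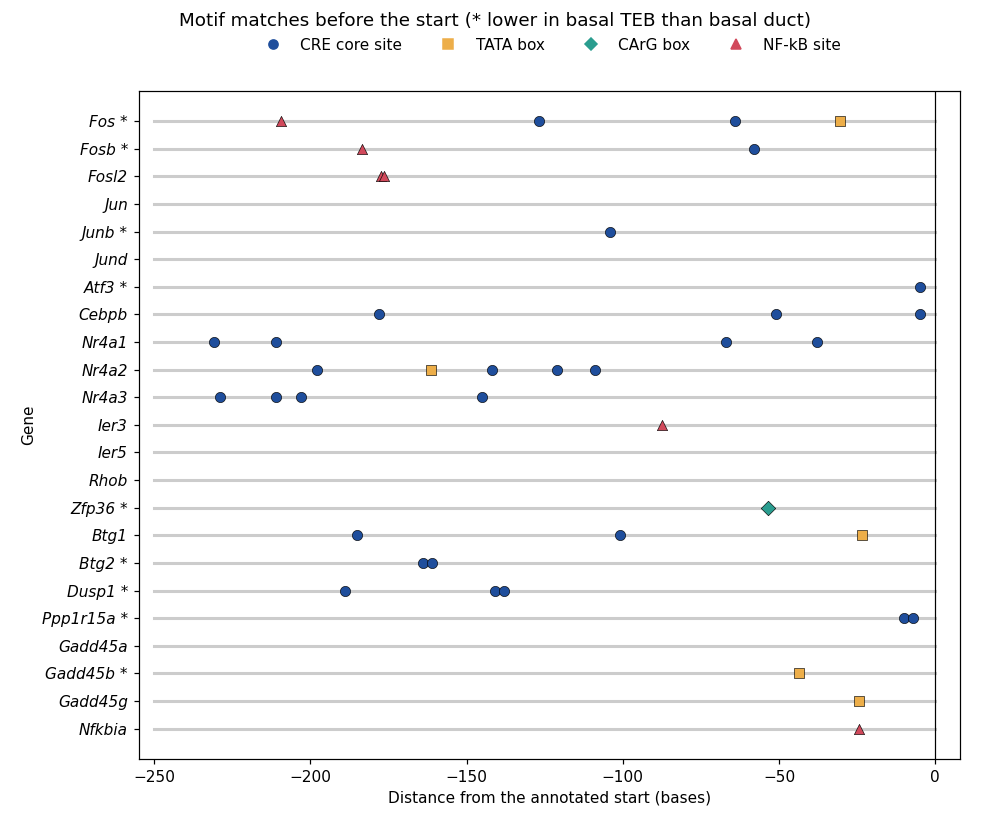
Position of motif matches in the 250 bases before the annotated start of the 23 genes with 1 window, as distance from the start in bases; an asterisk marks genes called lower in basal TEB than basal duct. CRE core sites (circles) occur in 12 of the 23, in Ppp1r15a, Atf3 and Cebpb close to the start, with the CArG box as a diamond and NF-kB sites as triangles, and TATA boxes (squares) in 5.

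Other genes of the pathway were counted from lists of related genes. Over all genes tested, 1.16% were called lower and 0.167% higher in basal TEB than basal duct, and the median log2 fold change was -0.03. Of 27 other early response genes, 6 were lower in basal TEB than basal duct and none was higher, with a list median of -0.87. Those with the smallest p were Zfp36l1, a relative of Zfp36 (-1.60 ± 0.19, adjusted p = 0.00212), Socs3, the feedback inhibitor of STAT3 signalling (-2.10 ± 0.25, adjusted p = 0.00225), Tob1, of the same antiproliferative family as Btg2 (-1.48 ± 0.26, adjusted p = 0.0177) and Tiparp (-1.78 ± 0.31, adjusted p = 0.018). Of 14 heat shock genes 2 were lower, the small chaperone gene Hspb1 (-1.54 ± 0.18, adjusted p = 0.00225) and its partner Bag3 (-1.10 ± 0.23, adjusted p = 0.0395), with a median of -0.55. Of 16 NF-kB subunits and targets 1 was lower, the adhesion molecule Icam1 (-1.43 ± 0.31, adjusted p = 0.048), with a list median of -0.955. Of 22 upstream kinases and factors 1 was lower, the kinase Mapk3 (-0.93 ± 0.18, adjusted p = 0.0299), with a median of -0.06. Of 15 glucocorticoid and circadian genes 2 were lower, Klf9 (-1.84 ± 0.35, adjusted p = 0.0282) and Bmal1 (-1.50 ± 0.32, adjusted p = 0.0483), with a median of -0.42. None of 13 MAPK feedback inhibitors, 11 genes of the integrated stress response and 10 p53 targets was called, with medians of -0.11, 0.26 and -0.06. Zfp36l1, Socs3 and Hspb1 were called whichever library was left out, and Tob1 and Tiparp were lost without basal duct replicate 1 or 2 or basal TEB replicate 1 or 3, as were the other 5 genes named, which also needed every luminal TEB library.

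In luminal cells 1 gene over these 8 lists was called between TEB and duct, where 1.41% of all genes tested were called in either direction. It was Sik1, a kinase of the CREB pathway, at 602 and 653 CPM in luminal duct and 196, 230.4 and 308 in luminal TEB (-1.36 ± 0.24, adjusted p = 0.0226). This call was lost without luminal duct replicate 3 or any luminal TEB library. Between cell types the lists moved in both directions. Of all genes tested, 12.6% were called higher and 9.71% lower in basal cells of ducts, and 13.2% and 11.8% in those of TEBs. Among the other early response genes 9 were higher and 2 lower in basal cells of ducts and 10 higher and 8 lower in TEBs, among them Egr4 (4.98 ± 0.53, adjusted p = 3.87e-05, in ducts and 7.66 ± 0.50, adjusted p = 6.77e-07, in TEBs) and Arc (4.45 ± 0.43, adjusted p = 1.99e-05, and 3.01 ± 0.34, adjusted p = 4e-05), both higher in basal cells as Egr2 and Egr3 were. Egr4 was near the floor in luminal cells, at 0.888 and 2.88 CPM in duct and 0.457 to 0.944 CPM in TEB. Its basal levels were 52.4 to 66 CPM in duct and 115 to 209 CPM in TEB, so the size of its fold changes rests on few luminal counts. In TEBs Plk2 (-2.30 ± 0.21, adjusted p = 8.21e-06) and Klf6 (-2.44 ± 0.26, adjusted p = 2.45e-05) were lower in basal cells. Both were lower in basal cells of ducts as well (-1.34 ± 0.22, adjusted p = 0.000895, and -2.01 ± 0.27, adjusted p = 0.000214). Of the MAPK feedback inhibitors 6 were higher and 3 lower in ducts and 5 higher and 4 lower in TEBs, with Dusp6 (1.65 ± 0.24, adjusted p = 0.000363, and 2.56 ± 0.21, adjusted p = 4.1e-06) and Spry1 (2.29 ± 0.28, adjusted p = 0.000113, and 2.30 ± 0.24, adjusted p = 2.42e-05) higher and Dusp16 (-2.92 ± 0.24, adjusted p = 6.59e-06, and -2.44 ± 0.22, adjusted p = 8e-06) lower in basal cells. Of the NF-kB subunits and targets 2 were higher and 1 lower in basal cells of ducts, and 2 higher and 4 lower in TEBs. The list medians were -0.11 in ducts and -0.64 in TEBs. Icam1 was among the higher genes in both structures (3.20 ± 0.39, adjusted p = 0.0001, and 2.98 ± 0.33, adjusted p = 3.26e-05).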

How the data were processed

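Bulk RNA-seq of sorted mammary cells was analysed from the deposited counts. The authors aligned paired-end reads to mm10 and counted them by Entrez gene with Rsubread and its inbuilt RefSeq annotation (featureCounts in the submitters' processing notes, versions not given in the sources used here), from TruSeq libraries that do not keep strand, so the deposited values are whole counts, not normalized. The 11 columns were mapped to samples by title, with 0 columns left unused, and replicates differed beyond sampling noise. Labels call replicates separate samples, and the authors' methods call them biological, of at least 2 pooled mice.

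In R 4.3.3, genes were kept by filterByExpr (minimum count 10, minimum total 15), library sizes were scaled by TMM, and 1 quasi-likelihood model over the 4 groups was fitted with edgeR 4.0.16, without a replicate block, at an adjusted p of 0.05. Standard errors are the absolute log2 fold change over the square root of F. CPM are after TMM scaling. Depth was 27989137 to 49221436 counts per library. The fit was also run on simulated counts with known changes, placed only in the more abundant genes. The simulation took its spread from these same libraries, so it cannot show how well the fit suits them.

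The members and all lists (8 lists of related genes, 9 of cell type and proliferation markers) were chosen with earlier results of these data known. All members are accounted for, and values in every library are given for called members and the AP-1, EGR and NR4A families. Of each list of related genes at most 4 called genes per comparison, by smallest p, are named. Plk2 and Klf6, named for TEBs, are given for ducts too. Hbb-bt was not analysed here. Promoter windows are those of RefSeq on GRCm38.p6. Alternatives were other scalings (DESeq2 1.42.0 size factors, upper quartile, none), other filters, DESeq2, the edgeR likelihood ratio test, limma voom (3.58.1), only the groups compared, the replicate number as a block, removal of mitochondrial genes, and libraries left out.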

Additional observations from a re-analysis of the deposited data

Results flagged for a closer look

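The TEB effect differed between basal and luminal cells, by the interaction test, for 2 of the related early response genes, and for none of the 36 genes. For Zfp36l1 the effect was lower in basal cells by a log2 difference of -1.55 (adjusted p = 0.0374), with 1496, 1487.5 and 1153 CPM in basal duct, 407, 541 and 412 in basal TEB, and 280 to 316 CPM in all 5 luminal libraries. For Socs3 the difference was -1.94 (adjusted p = 0.049), with 904, 1125 and 1043 CPM in basal duct, 167, 318 and 233 in basal TEB, 538 and 409 in luminal duct and 421, 361 and 492 in luminal TEB. The call of Zfp36l1 was lost without any 1 of 8 libraries, and that of Socs3 without any 1 of 9. Zfp36l1 kept its call without basal TEB replicate 2, basal duct replicate 3 or luminal duct replicate 1, and Socs3 without basal TEB replicate 2 or luminal duct replicate 1.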

How the results depend on the processing

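For TEB against duct, 11 genes were called in the basal comparison and 2 in the luminal one; the contrast of cell types gave 22 calls for ducts and 22 for TEBs, and 0 genes passed the interaction test. In that order of comparisons, leaving out each library gave 2 to 15, 0 to 3, 15 to 23, 17 to 23 and 0 to 4. Without composition scaling the counts were 2, 0 and 14 for the first 3 comparisons, and the median log2 fold change over all genes moved from -0.03 to -0.16, from 0.04 to 0.42, from 0.08 to 0.19, from 0.04 to -0.35 and from -0.13 to -0.63. DESeq2 gave 25, 7 and, for the interaction, 9 calls, the likelihood ratio test 23, 7 and 9, and limma voom 20 in basal cells and 3 for the interaction. With only the groups compared the counts were 7, 4 and 14. In basal cells the count was 7 without basal TEB replicate 1 and luminal duct replicate 3, the libraries highest in mitochondrial share, and 6 without basal duct replicate 2 and luminal duct replicate 3, an alternative chosen after seeing the data. The replicate block gave 11, 3, 20, 23 and 0 calls. Same-numbered samples correlated by -0.07 to 0.16 in their deviations (median 0.07, 4 of 15 pairs over 0.1). Differently numbered samples correlated by -0.16 to 0.14 (median -0.03, 2 of 30 pairs over 0.1). The labels do not say how numbers were assigned, and whether same-numbered samples share more than a number cannot be told from these weak correlations. All other alternatives gave counts within 1.5 times the main ones. The alternatives gave 2873 values for 120 results of single genes. Of these values, 289 were no longer past the threshold, 68 passed it newly and 34 changed direction. Differences outside the 120 results changed direction too, among them Egr2 in the interaction (8 alternatives), Myc in luminal cells (4) and Trib1 in ducts (3). These named differences were not called in any fit. Within the 120 results, the changes of direction fell on the 9 differences given below, also not called in any fit. The cause was not tested. Without composition scaling TEB against duct in luminal cells was 0.15 for Egr1, 0.32 for Egr3, 0.24 for Zfp36 and 0.25 for Ppp1r15a, and basal against luminal in ducts was 0.12 for Per1 (0.0059 with limma voom). In luminal cells Jun and Nr4a1 were at -0.028 and -0.046 with DESeq2 size factors, -0.028 and -0.046 with DESeq2, -0.012 and -0.024 with upper-quartile scaling, -0.0023 and -0.017 with a mean CPM of at least 1, and -0.049 and -0.0897 with the replicate block, and in basal cells Nr4a1 was at 0.00064 with only the groups compared. With libraries left out the ranges were -0.21 to 0.69 for Egr3 and -0.37 to 0.15 for Nr4a1 in basal cells, -0.23 to 0.14 for Egr3, -0.11 to 0.12 for Jun, -0.21 to 0.32 for Nr4a1 and -0.33 to 0.16 for Ppp1r15a in luminal cells, and -0.22 to 0.24 for Per1 in ducts.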
